A study of Mus musculus with 32 samples.

Results

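The genes described here are 47 genes known to be induced by type I interferon, taken by name. On the mouse gene array used, 45 of the 47 had a probeset annotated to that gene alone, out of 19938 genes with such a probeset. The probeset for Isg15 was annotated to several genes and Ifi44 had none of its own in the annotation used, so neither was given a value. Where a gene had several probesets (Apobec3, Ifitm1, Ifitm2, Irf1 and Rnf213), the one with the highest mean over the 32 arrays was taken. Values are log2 RMA signals, so that a difference of 1 is a 2-fold difference, and levels are compared between groups for one gene, not between genes.

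Type I interferons bind a receptor formed by Ifnar1 and Ifnar2 and activate the kinases Jak1 and Tyk2. These phosphorylate Stat2, which acts with Irf9 in a complex that binds interferon-stimulated response elements in the promoters of the induced genes. Myd88 is the adaptor through which most Toll-like receptors signal, and downstream of the endosomal receptors it activates Irf7, which drives interferon genes in plasmacytoid dendritic cells. Pax5 is the transcription factor that commits progenitors to the B lineage.

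Of the mouse groups, 2 were leukemic bone marrow, from Pax5+/-;Myd88+/- mice (6 arrays) and Pax5+/- mice (6 arrays). These were compared with proB and preB cells sorted from WT bone marrow as B220low IgM- cells (4 arrays). The other 4 groups were B220+ bone marrow cells of healthy Pax5+/-;Myd88-/-, Pax5+/-;Myd88+/-, Pax5+/- and WT mice, with 4 arrays each, and are called proB cells here. All mice lost at most 1 copy of Pax5, and the Myd88 mutation came from the strain B6.129P2(SJL)-Myd88tm1.1Defr/J. The methods give the mice a mixed C57BL/6×CBA background. Whether this background differed between groups was not given, and its part was not tested. The labels of all samples say that mice were kept pathogen-free and moved to conventional housing at 2 months. The methods give another age for the proB cultures, so this move may not hold for them. By the methods, proB cells were isolated on B220 beads from mice of 2 to 3 weeks and grown with 5 ng per ml IL7 on ST2 stromal feeder cells, and the culture of Myd88-/- cells was not described there. Each array was described as a separate biological replicate. All are bulk samples, in which fewer cells of a type and less RNA per cell cannot be told apart.

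Several facts of the arrays touch the results below. Myd88 read 7.04 to 7.44 in Pax5+/-;Myd88-/- proB cells, 8.51 to 8.78 in Pax5+/-;Myd88+/- proB cells, 9.21 to 9.35 in Pax5+/- proB cells and 9.22 to 9.63 in WT proB cells, so the order followed the labels. Xist, which is transcribed from the inactive X chromosome of female cells, read 12.29 to 12.52 in the 8 Myd88-deficient proB arrays and 5.32 to 6.11 in the 8 Pax5+/- and WT proB arrays. Sex and Myd88 genotype therefore cannot be told apart in the proB comparisons that cross these groups. Sorted WT cells all read 12.23 to 12.46 for Xist, against 5.44 to 9.72 in Pax5+/- leukemias, while Pax5+/-;Myd88+/- leukemias held both levels, so sex also moves with the comparisons of Pax5+/- leukemias and of WT proB cells with sorted WT cells. Its part was not tested. The mean of 11 stromal genes was higher in replicates 1 and 3 than in replicates 2 and 4 of every proB genotype, as in Pax5+/- proB cells, with 9.18 and 9.29 against 7.77 and 7.80, and whether cultures were handled in such pairs was not stated. In WT proB cells replicates 1 and 3 correlated at 0.9982 and replicates 2 and 4 at 0.9979 across probesets, against 0.9906 to 0.9912 for the other pairs, and whether these pairs are repeat arrays of one culture was not stated. Precursor B cell genes were high in sorted WT cells (mean 11.54 to 11.79 over 9 genes), and so were 10 natural killer cell genes (7.91 to 8.79, against at most 6.47 in every other array).

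The response element has a simple core, 2 copies of GAAA, or of TTTC when it lies on the other strand, separated by any 2 bases. RefSeq promoter sequence (GRCm38.p6) was at hand for 35 of the 45 genes. The core lay between 250 bases before and 50 bases after the start of transcription in 15 of them (42.9%), against 1079 of 27025 genes (3.99%). The promoters of 5 genes named in the results below are shown, all with a core before the start. Each is given as the 150 bases before the start, with the core in capitals. They lie at chr12:26456453-26456602 on the minus strand (Rsad2), chr19:34640739-34640888 on the plus strand (Ifit1), chr8:71537473-71537622 on the minus strand (Bst2, with overlapping copies), chr15:79892258-79892407 on the plus strand (Apobec3, first start) and chr7:140955962-140956111 on the minus strand (Ifitm2).
Rsad2: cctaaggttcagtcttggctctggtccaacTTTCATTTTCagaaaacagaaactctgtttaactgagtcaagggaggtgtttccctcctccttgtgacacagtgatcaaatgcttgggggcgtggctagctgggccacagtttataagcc
Ifit1: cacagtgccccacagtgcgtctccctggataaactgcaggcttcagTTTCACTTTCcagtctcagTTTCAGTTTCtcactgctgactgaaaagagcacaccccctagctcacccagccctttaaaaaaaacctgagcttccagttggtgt
Bst2: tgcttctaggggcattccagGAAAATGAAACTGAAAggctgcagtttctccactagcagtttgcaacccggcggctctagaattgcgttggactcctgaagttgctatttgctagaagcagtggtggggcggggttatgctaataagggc
Apobec3: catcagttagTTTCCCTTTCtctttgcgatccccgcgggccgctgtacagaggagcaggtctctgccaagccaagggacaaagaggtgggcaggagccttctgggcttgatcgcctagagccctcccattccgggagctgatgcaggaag
Ifitm2: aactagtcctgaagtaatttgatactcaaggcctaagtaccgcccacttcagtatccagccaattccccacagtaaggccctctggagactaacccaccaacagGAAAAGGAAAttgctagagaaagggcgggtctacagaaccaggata
Counted from the start of transcription, the core began at position -120 in Rsad2, -104 and -85 in Ifit1, -130 and -124 in Bst2, -140 in Apobec3 and -46 in Ifitm2. Other genes named below had no core in the range searched, among them Ifitm1, Sp100, Lgals3bp, Rnf213, Irf1 and Isg20. Ifitm3 and Eif2ak2 held the core only after the start, and the second start of Apobec3 had none. A match of these letters is a description and not a measured binding site.

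The mean over the 45 genes was spread widely among the leukemias and narrowly in every other group. It was 8.65, 8.72, 9.05, 9.21, 8.57 and 7.93 in replicates 1 to 6 of the Pax5+/-;Myd88+/- leukemias. For Pax5+/- leukemias the values were 9.19, 8.44, 8.44, 8.35, 9.29 and 9.19. Sorted WT cells lay at 8.46, 8.52, 8.36 and 8.38, within the range of both leukemia groups. In the cultures the mean was 8.20, 8.07, 8.15 and 8.06 in Pax5+/-;Myd88-/- proB cells, 8.21, 8.15, 8.30 and 8.27 in Pax5+/-;Myd88+/- proB cells, 7.92, 7.95, 7.91 and 7.92 in Pax5+/- proB cells and 8.10, 7.93, 8.13 and 7.92 in WT proB cells. The 8 Myd88-deficient arrays lay above every Pax5+/- proB array. WT proB cells overlapped the Pax5+/- and the Pax5+/-;Myd88-/- arrays and lay below every Pax5+/-;Myd88+/- array. Among single genes the median SD over arrays was 0.60 for Pax5+/-;Myd88+/- leukemias and 0.53 in Pax5+/- leukemias, against 0.12 to 0.17 in the other groups.

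**Figure D1:**
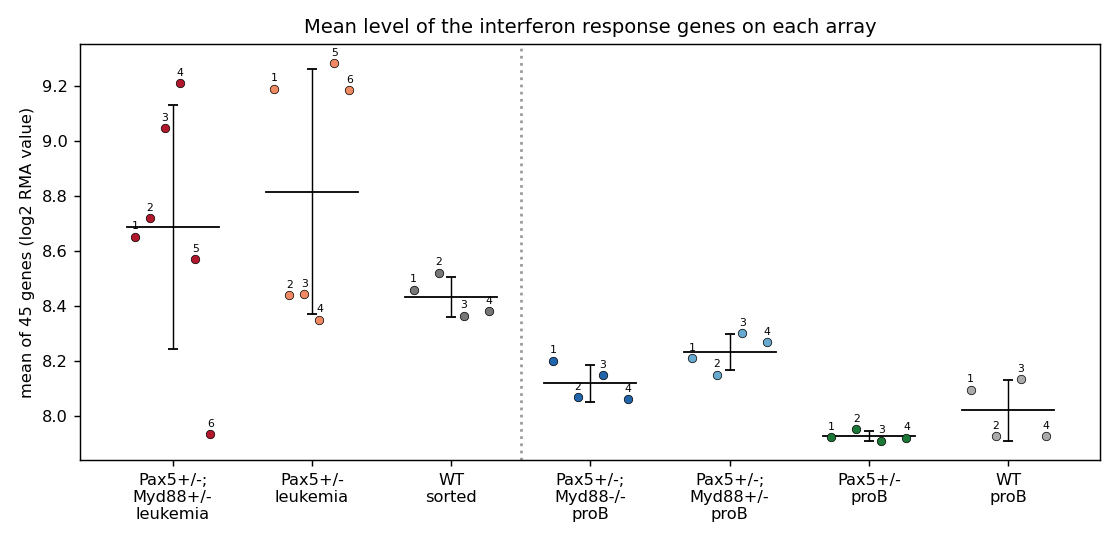
Mean log2 RMA value of the 45 interferon response genes in each of the 32 arrays, by group, with points numbered by replicate, a line at the group mean and a bar of 1 SD. The leukemias spread over more than 1 log2 unit in the Pax5+/-;Myd88+/- group (7.93 to 9.21), whereas Pax5+/- proB cells lie between 7.91 and 7.95.

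Group means of single genes differed by more than 1 log2 unit between the highest and lowest group for 33 of the 45 genes, and by more than 2 for 13 of them. The range was largest for Ifitm1 (3.92) and smallest for Ifit2 (0.35). The highest mean was in Pax5+/- leukemias for 19 genes, in sorted WT cells for 10 and in Pax5+/-;Myd88+/- leukemias for 8, and the lowest was in Pax5+/- proB cells for 15 and in WT proB cells for 11. Over the 9 comparisons within the leukemia experiment or within the proB experiment, 12 genes passed an adjusted p of 0.05 in a leukemia comparison, 27 in a proB comparison and 10 in both. The 16 that passed in none included Oas3, Oasl1 and Oasl2, Ifit2 and Ifit3, Mx1 and Mx2, Usp18, Zbp1, Rtp4, Xaf1 and Irf9, genes often used as readouts of interferon exposure. The other 4 of these were Ifi205, Trim25, Parp9 and Dtx3l. Shares over all probesets were not counted for the ranges, for the highest and lowest means or for passing in any of these comparisons. All these counts therefore stand without a background. Mx1, Mx2, Ifit1 and Ifi205 had means below 6 over the 32 arrays, at the low end of the signal range.

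**Figure D2:**
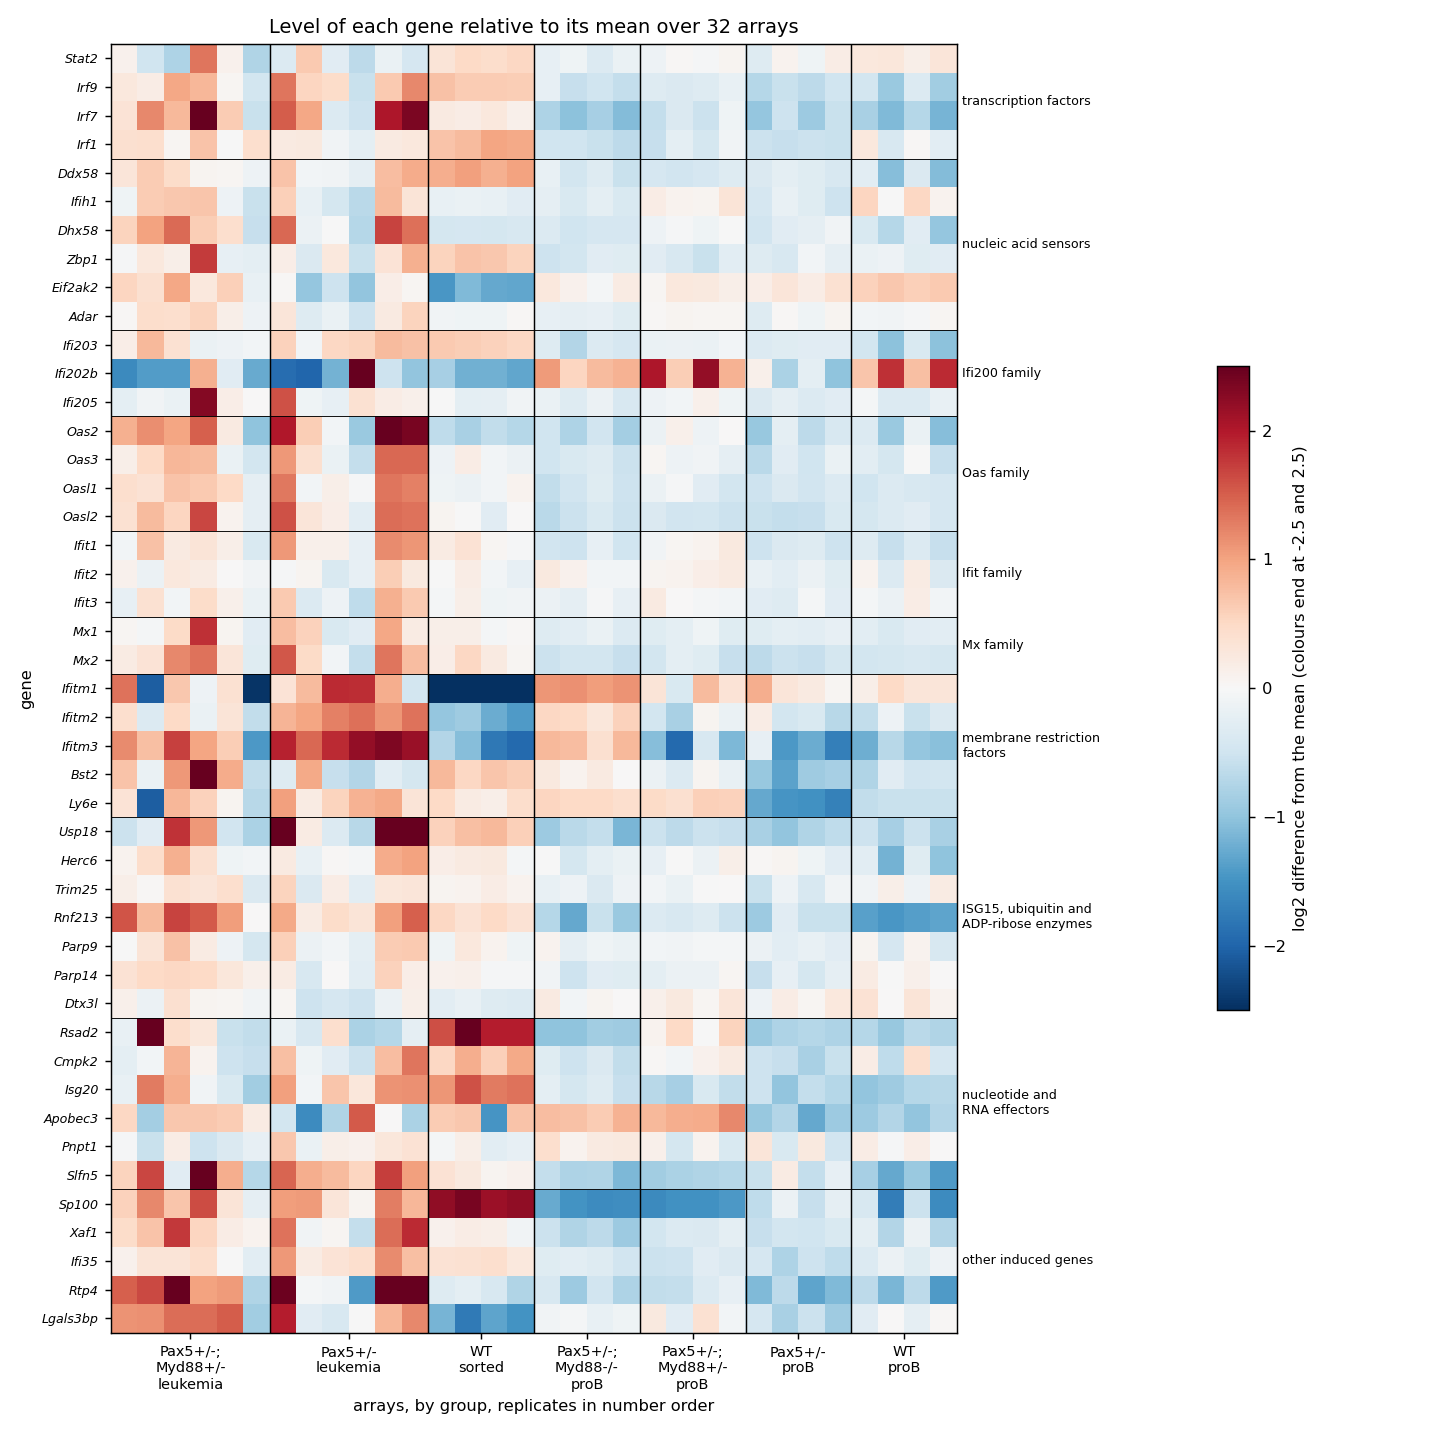
Log2 difference of each array from the gene's mean over the 32 arrays, for the 45 genes (rows, by role) and the arrays (columns, by group), with colours ending at 2.5 in either direction. Columns within the leukemia groups differ from one another across many genes, while columns within a proB group look alike.

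The leukemia experiment asked how leukemic marrow of each genotype differed from sorted WT precursors. Of the 45 genes, 5 rose and 5 fell in the Pax5+/-;Myd88+/- leukemias, where 13.8% of all 28944 probesets were higher and 17.1% lower than in sorted WT cells. In the Pax5+/- leukemias 5 rose and 3 fell, where 11.7% of all probesets were higher and 12.8% lower. The counts are thus no larger a share than among all probesets. The median difference was 0.28 over the 45 genes and -0.01 over all probesets for Pax5+/-;Myd88+/- leukemias, and 0.31 and -0.03 for Pax5+/- leukemias. Both comparisons share the same 4 sorted WT arrays. The genes that rose were the 3 Ifitm genes, Eif2ak2 and Lgals3bp in both genotypes. Those that fell included Irf1, Rsad2 and Sp100 in both.

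The Ifitm proteins sit in membranes and block virus entry, and their genes lie side by side on chromosome 7. Ifitm1 read 8.50 to 12.31 (median 11.08) in Pax5+/-;Myd88+/- leukemias and 10.50 to 12.82 (median 11.81) in Pax5+/- leukemias, against 8.06, 8.27, 8.07 and 8.15 in sorted WT cells. Every leukemia lay above every sorted sample. The log2 difference was 2.45 (SE 0.66, adjusted p = 0.0105) for Pax5+/-;Myd88+/- leukemias and 3.70 (SE 0.66, adjusted p = 0.000939) for Pax5+/- leukemias. Ifitm2 read 10.47 to 11.58 (median 11.18) and 11.93 to 12.47 (median 12.27) in the same leukemias, against 10.13, 10.21, 9.84 and 9.68 in sorted WT cells, with differences of 1.14 (SE 0.20, adjusted p = 0.00048) and 2.28 (SE 0.20, adjusted p = 2.42e-06). Here too no leukemia overlapped the sorted cells. Ifitm3 read 8.38 to 11.52 (median 10.67) and 11.24 to 12.15 (median 11.86), against 9.07, 8.75, 8.02 and 7.86, with differences of 2.02 (SE 0.45, adjusted p = 0.0029) and 3.37 (SE 0.45, adjusted p = 9.39e-05). In Ifitm3 replicate 6 of the Pax5+/-;Myd88+/- leukemias (8.38) fell within the sorted range and the other 11 leukemias lay above it. Some stromal, platelet and macrophage genes were also higher in leukemias than in sorted WT cells. Of 11 stromal genes, 4 rose in Pax5+/-;Myd88+/- and 5 in Pax5+/- leukemias. Their mean level was 7.50 to 9.61 and 8.20 to 9.27, against 6.89 to 7.03 in sorted WT cells. Of 6 platelet genes 1 and 4 rose. Of 11 macrophage genes 3 rose and 1 fell in Pax5+/-;Myd88+/- leukemias, and 6 rose in Pax5+/- leukemias. Of 12 granulocyte genes 0 and 1 rose. Their mean was 9.31, 9.105, 6.95 and 6.88 in replicates 1 to 4 of the sorted cells, the same order as for Ifitm3. The part of these cell types was not tested.

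Eif2ak2 encodes PKR, a kinase that senses double-stranded RNA and halts translation. It read 9.18 to 10.32 (median 9.83) in Pax5+/-;Myd88+/- leukemias and 8.37 to 9.53 (median 9.12) in Pax5+/- leukemias, against 7.90, 8.25, 8.09 and 8.07 in sorted WT cells. All leukemias were above all sorted samples, by 1.71 (SE 0.25, adjusted p = 6.83e-05) and 0.91 (SE 0.25, adjusted p = 0.014). Lgals3bp, a secreted glycoprotein that binds galectins, read 8.96 to 11.35 (median 11.10) and 9.44 to 11.80 (median 10.24), against 8.66, 8.06, 8.51 and 8.33. It differed by 2.39 (SE 0.49, adjusted p = 0.00153) and 1.99 (SE 0.49, adjusted p = 0.00845), with no overlap. Macrophages also express Lgals3bp, and the mean of 11 macrophage genes was 6.84 to 9.24 in Pax5+/-;Myd88+/- leukemias and 8.31 to 9.24 in Pax5+/- leukemias, against 7.0 to 7.25 in sorted WT cells. The part of these cells in the result was not tested.

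The genes that fell act in different steps. Of 10 natural killer cell genes, 9 were also lower in the leukemias of each genotype than in sorted WT cells. Of 8 plasmacytoid dendritic cell genes, 1 was lower in each. The part of these cells in the falls was not tested. Rsad2 encodes viperin, a radical-SAM enzyme that makes a chain-terminating nucleotide, and read 6.97, 10.39, 7.61, 7.44, 6.61 and 6.54 in replicates 1 to 6 of the Pax5+/-;Myd88+/- leukemias and 6.99, 6.76, 7.58, 6.38, 6.46 and 6.94 in those of the Pax5+/- leukemias, against 8.78, 9.81, 9.12 and 9.12 in sorted WT cells. Replicate 2 of the Pax5+/-;Myd88+/- leukemias was above every sorted sample and the other 11 leukemias were below them all. The differences were -1.61 (SE 0.57, adjusted p = 0.0434) and -2.36 (SE 0.57, adjusted p = 0.00761). The first of these did not hold when any array other than replicate 2 of the leukemias was left out, with an adjusted p of 0.0591 to 0.124. Sp100, a component of nuclear bodies, read 8.94 to 10.81 (median 9.82) and 9.24 to 10.45 (median 10.11) in the leukemias, against 11.40, 11.55, 11.32 and 11.39, without overlap, and differed by -1.54 (SE 0.30, adjusted p = 0.0011) and -1.48 (SE 0.30, adjusted p = 0.00256). Irf1, a transcription factor induced by interferons of both types, read 9.10 to 9.81 (median 9.52) and 8.86 to 9.37 (median 9.33), against 9.81, 9.90, 10.09 and 10.05, with differences of -0.52 (SE 0.14, adjusted p = 0.00839) and -0.75 (SE 0.14, adjusted p = 0.00103). Only the highest Pax5+/-;Myd88+/- leukemia reached the lowest sorted sample for Irf1. The second probeset of Irf1 averaged 7.07 and 6.70 in the leukemias, against 6.99 in sorted WT cells, and the mean of both probesets did not pass in Pax5+/-;Myd88+/- leukemias (adjusted p = 0.14).

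Of the remaining genes that fell, both did so in Pax5+/-;Myd88+/- leukemias. Isg20, an exonuclease, read 7.59 to 9.76 (median 8.33) in Pax5+/-;Myd88+/- leukemias, against 9.57, 10.05, 9.76 and 9.82 in sorted WT cells, a difference of -1.22 (SE 0.36, adjusted p = 0.0181). Ddx58 encodes RIG-I, a sensor of viral RNA, and read 9.07 to 9.84 (median 9.39), against 10.12, 10.23, 10.10 and 10.22, a difference of -0.73 (SE 0.22, adjusted p = 0.0203). For Isg20 replicate 2 of the leukemias reached the sorted range, and for Ddx58 no leukemia of this genotype did. In Pax5+/- leukemias the differences were -0.64 (SE 0.36, adjusted p = 0.217) for Isg20 and -0.63 (SE 0.22, adjusted p = 0.0534) for Ddx58, short of the threshold. Leaving out replicate 2 of the sorted cells ended the calls of Isg20 (adjusted p = 0.0551) and Ddx58 (adjusted p = 0.052), and leaving out replicate 4 that of Ddx58 (adjusted p = 0.0505).

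Several of the best-known interferon-induced genes differed widely among leukemias of one genotype. Oas2, which makes the 2-5A messenger that activates RNase L, read 8.72, 9.0, 8.82, 9.33, 8.05 and 6.83 in replicates 1 to 6 of the Pax5+/-;Myd88+/- leukemias and 9.83, 8.44, 7.76, 6.91, 10.39 and 10.21 in those of the Pax5+/- leukemias, against 7.20, 7.03, 7.21 and 7.12 in sorted WT cells. Usp18, which removes ISG15 from proteins and dampens the receptor, read 6.17, 6.42, 8.51, 7.79, 6.23 and 5.91 and 9.67, 6.91, 6.35, 6.01, 9.84 and 9.37, against 7.27, 7.46, 7.51 and 7.29. Rtp4 read 8.88, 9.04, 10.42, 8.39, 8.46 and 6.64 and 9.84, 7.35, 7.31, 5.97, 10.19 and 10.27, against 7.07, 7.15, 6.99 and 6.64. In all 3 genes, replicates 1, 5 and 6 were the highest Pax5+/- leukemias, and the highest and lowest leukemia of that genotype were more than 3 log2 units apart. The gap to sorted cells was 1.32 (SE 0.63, adjusted p = 0.131) and 1.78 (SE 0.63, adjusted p = 0.0515) for Oas2, -0.54 (SE 0.77, adjusted p = 0.644) and 0.64 (SE 0.77, adjusted p = 0.576) for Usp18 and 1.68 (SE 0.82, adjusted p = 0.143) and 1.53 (SE 0.82, adjusted p = 0.192) for Rtp4, none past the threshold. Irf7 read 8.54, 9.40, 9.01, 11.08, 8.83 and 7.64 and 9.72, 9.17, 7.87, 7.69, 10.22 and 10.55, against 8.42, 8.40, 8.46 and 8.33, with sorted cells inside the range of both leukemia groups.

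Single leukemias stood at the ends of the range across many genes. Among Pax5+/-;Myd88+/- leukemias, replicate 6 had the lowest value for 33 of the 45 genes, replicate 3 the highest for 20 and replicate 4 the highest for 17. How often these arrays were lowest or highest among all probesets was not counted, so these counts stand without a background. Cell type genes also differed between these arrays. The mean of 8 plasmacytoid dendritic cell genes was 8.82, 7.35, 8.13, 10.71, 9.38 and 7.47 in the Pax5+/-;Myd88+/- leukemias and 7.75, 10.52, 7.89, 8.01, 8.01 and 7.72 in the Pax5+/- leukemias, against 9.46 to 9.93 in sorted WT cells. It was highest in the leukemia of each genotype with the highest Bst2, which plasmacytoid dendritic cells of the mouse also carry (11.79 in replicate 4 of the Pax5+/-;Myd88+/- leukemias and 9.94 in replicate 2 of the Pax5+/- leukemias). The mean of 9 precursor B cell genes was 10.95, 9.26, 11.56, 9.46, 10.45 and 11.26 in the Pax5+/-;Myd88+/- leukemias and 11.44, 8.75, 10.45, 8.70, 11.56 and 11.06 in the Pax5+/- leukemias. The part of these cell types in the spread was not tested.

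**Figure D3:**
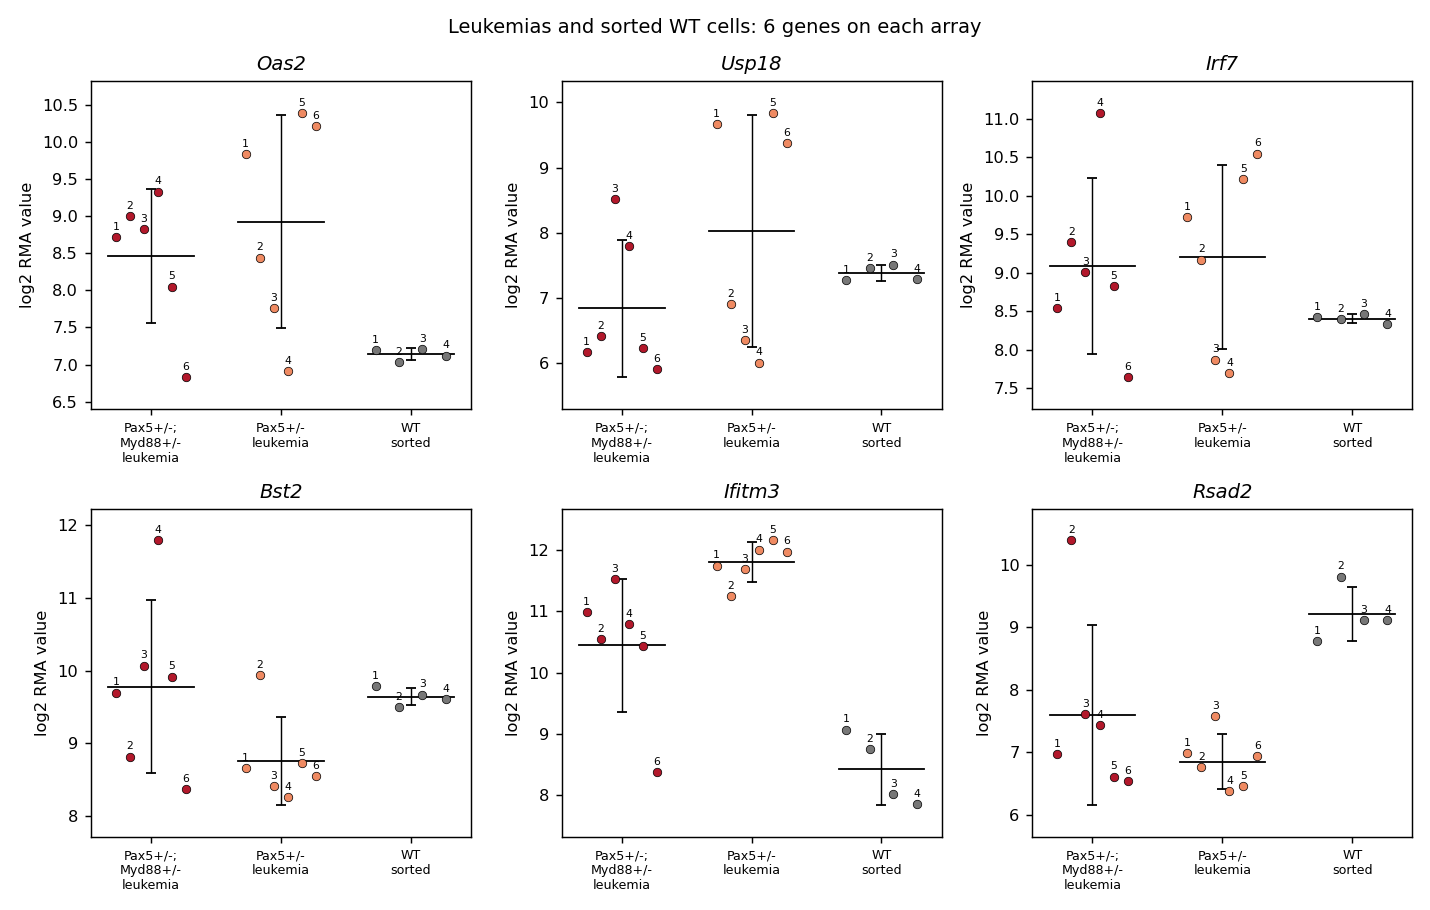
Log2 RMA values of Oas2, Usp18, Irf7, Bst2, Ifitm3 and Rsad2 in the Pax5+/-;Myd88+/- leukemias, the Pax5+/- leukemias and sorted WT cells, with points numbered by replicate, a line at the mean and a bar of 1 SD. Within the Pax5+/- leukemias, Oas2, Usp18 and Irf7 are highest in replicates 1, 5 and 6, and Rsad2 is high in replicate 2 of the Pax5+/-;Myd88+/- leukemias (10.39).

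Between the leukemia genotypes, 1 gene rose and 4 fell in Pax5+/-;Myd88+/- relative to Pax5+/- leukemias, where 18.1% of all probesets were higher and 16.3% lower. The median difference was -0.07 over the 45 genes and 0.01 over all probesets. Eif2ak2, with the values above, was higher by 0.80 (SE 0.22, adjusted p = 0.0114). Ifitm2 and Ifitm3 were lower, by -1.14 (SE 0.18, adjusted p = 0.000219) and -1.35 (SE 0.41, adjusted p = 0.0176), and Ifitm2 did not overlap between the genotypes. Marker genes of other cells also had lower medians in Pax5+/-;Myd88+/- leukemias, by -1.31 over 12 granulocyte genes (1 fell), -1.27 over 6 platelet genes (2 fell), -0.92 over 11 macrophage genes (2 fell, 1 rose) and -0.25 over 11 stromal genes (2 fell), and their part was not tested. Pnpt1, a mitochondrial RNA-degrading enzyme, read 9.25 to 10 (median 9.54) in Pax5+/-;Myd88+/- leukemias, against 9.65 to 10.49 (median 10.03) in Pax5+/- leukemias, a difference of -0.48 (SE 0.15, adjusted p = 0.0187). Ifi35 read 8.50 to 9.20 (median 8.98), against 8.96 to 9.95 (median 9.35), a difference of -0.51 (SE 0.16, adjusted p = 0.0257). Its call was lost without replicate 5 or 6 of the Pax5+/-;Myd88+/- or replicate 1 or 5 of the Pax5+/- leukemias (adjusted p = 0.0516 to 0.0627). Without replicate 2 of the Pax5+/-;Myd88+/- leukemias, the count was 8 genes.

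The factors that carry the interferon signal were given by their means. Stat2 averaged 9.10 ± 0.80 in Pax5+/-;Myd88+/- leukemias, 8.98 ± 0.45 in Pax5+/- leukemias and 9.62 ± 0.08 in sorted WT cells (SD, n = 6, 6 and 4). Irf9 averaged 8.89 ± 0.53, 9.19 ± 0.68 and 9.24 ± 0.06, and Irf7 averaged 9.08 ± 1.14, 9.20 ± 1.20 and 8.40 ± 0.05 in the same groups. None of these genes passed in a comparison of the leukemia experiment.

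In the proB experiment the 4 genotypes were compared with one another. Of the 45 genes, 3 rose and 9 fell in Pax5+/- relative to WT proB cells, where 4.1% of all probesets were higher and 2.96% lower. With 1 copy of Myd88 lost as well, 9 rose and 1 fell relative to Pax5+/- proB cells, where 2.02% were higher and 2.29% lower, and 9 rose and 1 fell relative to WT proB cells, where 3.33% were higher and 2.72% lower. In Pax5+/-;Myd88-/- proB cells 8 rose and 1 fell relative to Pax5+/- cells, where 6.66% were higher and 4.86% lower. Relative to Pax5+/-;Myd88+/- cells 3 rose and 7 fell, where 6.34% were higher and 4.04% lower, and relative to WT cells 8 rose and 5 fell, where 9.78% were higher and 5.95% lower. The share of the 45 genes that passed was close to or below the background for the genes that rose in Pax5+/- against WT and in null against heterozygous cells and for the single gene that fell in each of 3 comparisons. It was above the background in the other 7 directions. These 6 comparisons use 4 groups of arrays, so each shares its arrays with others.

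The counts rest on how independent the arrays are. With replicates 1 and 3 averaged, and replicates 2 and 4 averaged, in every genotype, a choice made after seeing the data, the genes that passed numbered 1 for Pax5+/- against WT (Ly6e), 4 for Pax5+/-;Myd88+/- against Pax5+/- (Bst2, Ly6e, Rsad2 and Apobec3), and 5 for Pax5+/-;Myd88+/- against WT (Eif2ak2, Ly6e, Rnf213, Rsad2 and Apobec3). They numbered 3 for Pax5+/-;Myd88-/- against Pax5+/- (Bst2, Ly6e and Apobec3), 1 against Pax5+/-;Myd88+/- (Rsad2, adjusted p = 0.023), and 4 against WT (Eif2ak2, Bst2, Ly6e and Apobec3).

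Ly6e, a membrane-anchored protein that blocks entry of some viruses, and Apobec3, a cytidine deaminase that mutates viral DNA, had the largest gaps between proB genotypes. Ly6e lies on chromosome 15 from 74955025 to 74959904 and Apobec3 on the same chromosome from 79892058 to 79918218 (GRCm38.p6). Ly6e read 12.89, 12.84, 12.84 and 12.76 in Pax5+/-;Myd88-/- proB cells, 12.83, 12.74, 12.94 and 12.92 in Pax5+/-;Myd88+/- proB cells, 11.07, 10.87, 10.83 and 10.66 in Pax5+/- proB cells and 11.74, 11.79, 11.80 and 11.79 in WT proB cells. The 2 Myd88-deficient groups overlapped and stood above WT, which stood above Pax5+/- cells. The difference from Pax5+/- cells was 1.98 (SE 0.07, adjusted p = 1.63e-11) in Pax5+/-;Myd88-/- and 2.0 (SE 0.07, adjusted p = 1.76e-11) in Pax5+/-;Myd88+/- cells, and the difference from WT cells was 1.05 (SE 0.07, adjusted p = 4.2e-08), 1.08 (SE 0.07, adjusted p = 3.18e-08) and, in Pax5+/- cells, -0.92 (SE 0.07, adjusted p = 2.22e-07). Apobec3 read 11.20, 11.16, 11.07 and 11.29 in Pax5+/-;Myd88-/- cells, 11.23, 11.34, 11.35 and 11.63 in Pax5+/-;Myd88+/- cells, 9.47, 9.70, 9.14 and 9.51 in Pax5+/- cells and 9.51, 9.70, 9.44 and 9.70 in WT cells. The 8 Myd88-deficient arrays stood above the other 8, and Pax5+/- and WT cells overlapped.

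For Apobec3 the difference from Pax5+/- cells was 1.73 (SE 0.11, adjusted p = 1.56e-08) in Pax5+/-;Myd88-/- and 1.93 (SE 0.11, adjusted p = 4.01e-09) in Pax5+/-;Myd88+/- cells, and the difference from WT cells was 1.59 (SE 0.11, adjusted p = 4.18e-08) and 1.80 (SE 0.11, adjusted p = 1.06e-08). Pax5+/- cells differed from WT cells by -0.13 (SE 0.11, adjusted p = 0.634). The split in Apobec3 and Xist fell between the same groups of proB arrays. In the leukemias it did not: among Pax5+/-;Myd88+/- leukemias Apobec3 was 10.95, 11.10 and 11.07 in replicates 1, 3 and 5, which had Xist of 5.39 to 6.04, and 9.57, 11.09 and 10.63 in replicates 2, 4 and 6, which had Xist of 12.49 to 12.80. In sorted WT cells, all with Xist of 12.23 to 12.46, Apobec3 read 11.06, 11.10, 8.96 and 11.14. The part of sex in the proB result was not tested.

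Bst2 encodes tetherin, which holds budding virus at the cell surface. It read 9.23, 9.08, 9.21 and 9.0 in Pax5+/-;Myd88-/- proB cells, 8.83, 8.65, 9.05 and 8.80 in Pax5+/-;Myd88+/- proB cells, 8.03, 7.65, 8.10 and 8.15 in Pax5+/- proB cells and 8.23, 8.71, 8.51 and 8.53 in WT proB cells. Pax5+/- cells lay below all Myd88-deficient arrays and below WT cells. The difference from Pax5+/- cells was 1.15 (SE 0.12, adjusted p = 5.67e-06) in Pax5+/-;Myd88-/- and 0.85 (SE 0.12, adjusted p = 0.000158) in Pax5+/-;Myd88+/- cells. Against WT cells it was 0.64 (SE 0.12, adjusted p = 0.00157) in Pax5+/-;Myd88-/- and -0.51 (SE 0.12, adjusted p = 0.0107) in Pax5+/- cells, the last of which was lost with only these 2 groups fitted (adjusted p = 0.0614).

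Rsad2 was raised in the Myd88 heterozygous cultures. It read 6.15, 6.16, 6.29 and 6.27 in Pax5+/-;Myd88-/- cells, 7.26, 7.67, 7.16 and 7.73 in Pax5+/-;Myd88+/- cells, 6.23, 6.39, 6.46 and 6.40 in Pax5+/- cells and 6.45, 6.22, 6.49 and 6.41 in WT cells. All 4 heterozygous arrays stood above the other 12. Pax5+/-;Myd88+/- cells differed by 1.09 (SE 0.11, adjusted p = 5.05e-06) from Pax5+/- and by 1.06 (SE 0.11, adjusted p = 4.53e-06) from WT cells, and Pax5+/-;Myd88-/- cells differed by -1.24 (SE 0.11, adjusted p = 1.46e-06) from Pax5+/-;Myd88+/- cells. Cmpk2, a mitochondrial nucleotide kinase whose gene is next to Rsad2 on chromosome 12, read 6.62, 6.42, 6.56 and 6.32 in Pax5+/-;Myd88-/- cells, 6.95, 6.87, 7.04 and 7.15 in Pax5+/-;Myd88+/- cells, 6.42, 6.35, 6.12 and 6.38 in Pax5+/- cells and 7.12, 6.30, 7.35 and 6.51 in WT cells. It differed by 0.69 (SE 0.17, adjusted p = 0.0295) between Pax5+/-;Myd88+/- and Pax5+/- cells. Ifit1, which binds viral RNA lacking the host cap methylation, read 5.21, 5.18, 5.49 and 5.19, 5.60, 5.74, 5.78 and 5.93, 5.17, 5.33, 5.38 and 5.18 and 5.38, 5.12, 5.36 and 5.12 in the same order of groups. The heterozygous arrays were again the highest, with differences of 0.50 (SE 0.09, adjusted p = 0.00246) from Pax5+/- and 0.52 (SE 0.09, adjusted p = 0.00132) from WT cells, and Pax5+/-;Myd88-/- cells differed by -0.50 (SE 0.09, adjusted p = 0.0024) from them, all at levels near or below 6.

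The Ifitm genes were raised in the Myd88 null cultures. Ifitm3 read 10.61, 10.58, 10.21 and 10.62 in Pax5+/-;Myd88-/- cells, 8.75, 7.86, 9.41 and 8.69 in Pax5+/-;Myd88+/- cells, 9.60, 8.38, 8.56 and 8.09 in Pax5+/- cells and 8.59, 9.12, 8.85 and 8.77 in WT cells. The null arrays lay above the other 12, by 1.83 (SE 0.30, adjusted p = 0.00091) over Pax5+/-;Myd88+/-, 1.85 (SE 0.30, adjusted p = 0.000684) over Pax5+/- and 1.67 (SE 0.30, adjusted p = 0.00123) over WT cells. Ifitm1 read 12.06, 12.10, 12.01 and 12.08, 11.27, 10.57, 11.75 and 11.29, 11.86, 11.25, 11.18 and 11 and 11.10, 11.46, 11.26 and 11.25 in the same order of groups, and Ifitm2 read 11.60, 11.59, 11.37 and 11.66, 10.63, 10.27, 11.15 and 10.93, 11.28, 10.64, 10.70 and 10.39 and 10.47, 10.97, 10.54 and 10.72. For these genes too the null arrays were the highest. Relative to Pax5+/-;Myd88+/-, Pax5+/- and WT cells the null cells differed by 0.84 (SE 0.20, adjusted p = 0.0138), 0.74 (SE 0.20, adjusted p = 0.0258) and 0.80 (SE 0.20, adjusted p = 0.012) for Ifitm1, and by 0.81 (SE 0.19, adjusted p = 0.0122), 0.80 (SE 0.19, adjusted p = 0.0118) and 0.88 (SE 0.19, adjusted p = 0.00456) for Ifitm2. Within Pax5+/-;Myd88+/- and within Pax5+/- cells, replicates 1 and 3, which had more stromal signal, also had the higher Ifitm3, and within WT cells they did not. The null cells, with the highest Ifitm values, had a stromal mean of 8.13, 7.89, 8.13 and 7.77, against 7.95 to 8.83 in Pax5+/-;Myd88+/-, 7.77 to 9.29 in Pax5+/- and 8.32 to 9.19 in WT cells. The part of stromal cells in the Ifitm result was not tested.

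Ifi202b, an Ifi200 protein that binds DNA in the cytoplasm, read 7.57, 7.04, 7.31 and 7.38 in Pax5+/-;Myd88-/- cells, 8.54, 7.13, 8.70 and 7.37 in Pax5+/-;Myd88+/- cells, 6.63, 5.72, 6.27 and 5.50 in Pax5+/- cells and 7.21, 8.33, 7.27 and 8.38 in WT cells. Pax5+/- cells lay below all others. They differed by -1.77 (SE 0.36, adjusted p = 0.0048) from WT cells, while Pax5+/-;Myd88+/- and Pax5+/-;Myd88-/- cells differed by 1.91 (SE 0.36, adjusted p = 0.0037) and 1.30 (SE 0.36, adjusted p = 0.0317) from Pax5+/- cells. The last of these lost its call when single arrays were left out (replicate 2, 3 or 4 of Pax5+/- or replicate 1, 3 or 4 of Pax5+/-;Myd88-/- cells, adjusted p = 0.0512 to 0.112). Its neighbour Ifi203 read 11.05, 11.07, 11.04 and 11.14 in Pax5+/-;Myd88+/- cells, against 10.74, 10.19, 10.82 and 10.19 in WT cells, without overlap and with a difference of 0.59 (SE 0.13, adjusted p = 0.00755), a call lost with only these 2 groups fitted (adjusted p = 0.059). Other genes beside this cluster on chromosome 1 also differed between the cultures. Of 11 measured, 3 fell in Pax5+/- relative to WT cells, where 2.96% of all probesets were lower. In Pax5+/-;Myd88+/- relative to Pax5+/- cells 3 rose and 1 fell, where 2.02% were higher and 2.29% lower. Cd84 differed by -2.73 (SE 0.23, adjusted p = 5.65e-07) between Pax5+/- and WT cells, and Slamf6 by 3.56 (SE 0.10, adjusted p = 6.74e-13) between Pax5+/-;Myd88+/- and Pax5+/- cells.

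**Figure D4:**
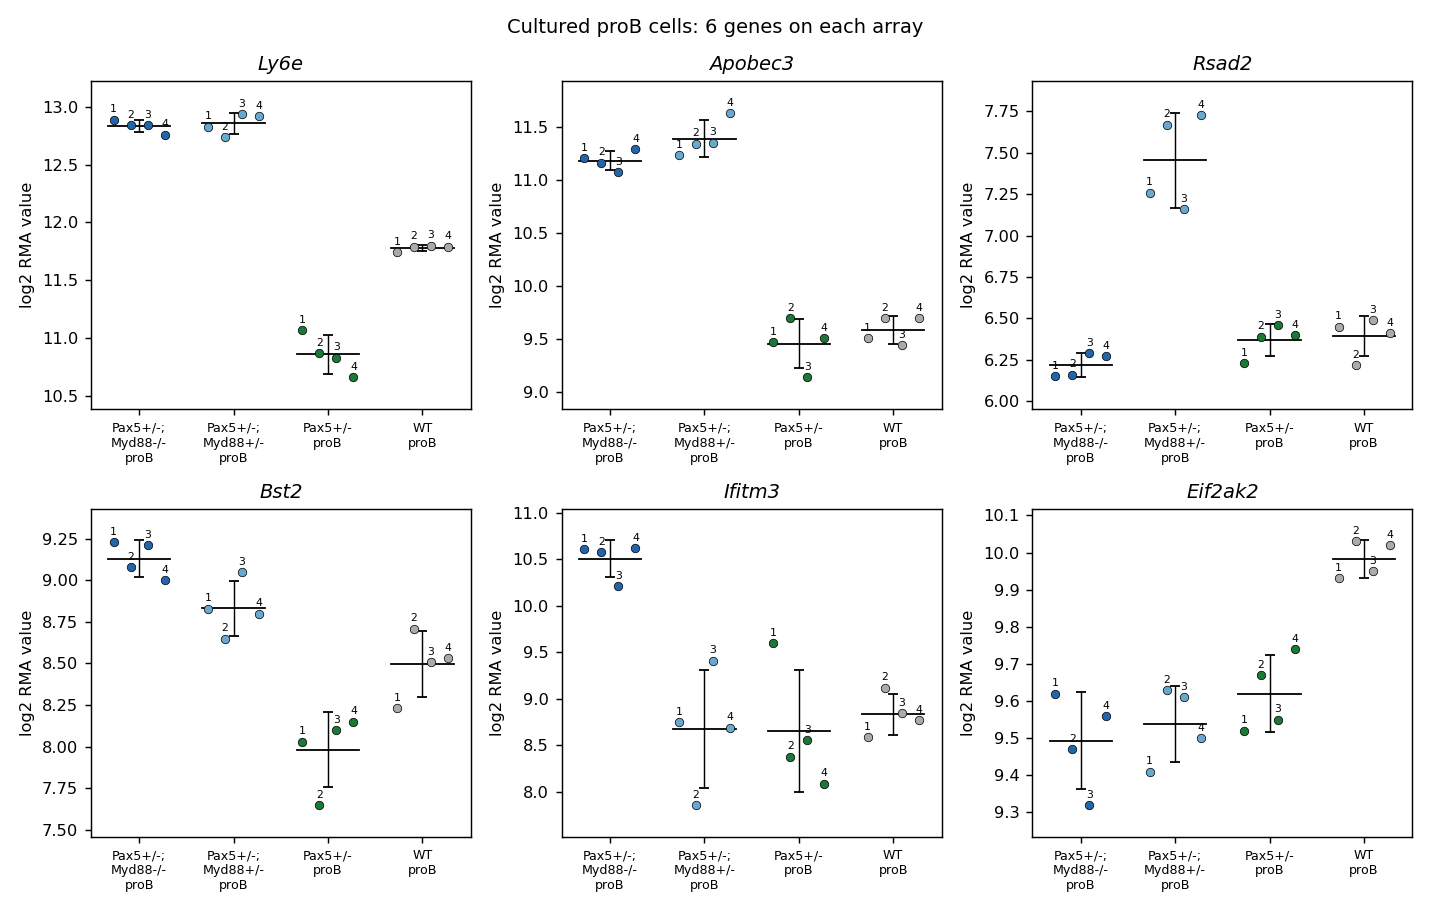
Log2 RMA values of Ly6e, Apobec3, Rsad2, Bst2, Ifitm3 and Eif2ak2 in Pax5+/-;Myd88-/-, Pax5+/-;Myd88+/-, Pax5+/- and WT proB cells, with points numbered by replicate, a line at the mean and a bar of 1 SD. Ly6e and Apobec3 are high in both Myd88-deficient groups, Rsad2 in the heterozygous group (7.16 to 7.73) and Ifitm3 in the null group (10.21 to 10.62).

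Sp100 was the single gene that fell relative to Pax5+/- cells in both Myd88-deficient genotypes. It read 7.92, 7.68, 7.60 and 7.63 in Pax5+/-;Myd88-/- cells, 7.58, 7.67, 7.67 and 7.73 in Pax5+/-;Myd88+/- cells, 8.53, 9.02, 8.59 and 8.95 in Pax5+/- cells and 8.78, 7.44, 8.64 and 7.61 in WT cells. The differences from Pax5+/- cells were -1.07 (SE 0.23, adjusted p = 0.00806) and -1.11 (SE 0.23, adjusted p = 0.00822). WT cells were divided, with replicates 1 and 3 at Pax5+/- levels and replicates 2 and 4 near the level of the Myd88-deficient cells. Lgals3bp read 9.74, 9.79, 9.64 and 9.72, 10.08, 9.55, 10.22 and 9.76, 9.42, 9.03, 9.29 and 8.95 and 9.54, 9.85, 9.60 and 9.87 in the same order of groups, with Pax5+/- cells lowest. It differed by 0.55 (SE 0.13, adjusted p = 0.0148) and 0.73 (SE 0.13, adjusted p = 0.00251) from Pax5+/- cells in the null and heterozygous cells, and by -0.54 (SE 0.13, adjusted p = 0.0178) between Pax5+/- and WT cells. The last call was lost without replicate 2 or 4 of either genotype (adjusted p = 0.062 to 0.0686).

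Among the sensors, Eif2ak2 read 9.62, 9.47, 9.32 and 9.56 in Pax5+/-;Myd88-/- cells, 9.41, 9.63, 9.61 and 9.50 in Pax5+/-;Myd88+/- cells, 9.52, 9.67, 9.55 and 9.74 in Pax5+/- cells and 9.93, 10.03, 9.95 and 10.02 in WT cells. All 12 Pax5+/- arrays lay below WT, by -0.49 (SE 0.07, adjusted p = 0.000188), -0.45 (SE 0.07, adjusted p = 0.00061) and -0.36 (SE 0.07, adjusted p = 0.00355). Ifih1, which encodes MDA5, a sensor of long double-stranded RNA, read 6.71, 6.55, 6.69 and 6.55, 7.11, 7.02, 7.0 and 7.25, 6.50, 6.74, 6.63 and 6.42 and 7.47, 6.92, 7.44 and 7.01 in the same order of groups. The null and Pax5+/- cells were low, at -0.59 (SE 0.11, adjusted p = 0.00238) and -0.64 (SE 0.11, adjusted p = 0.00145) from WT cells, and the heterozygous cells were 0.52 (SE 0.11, adjusted p = 0.0104) above Pax5+/- cells. Null cells differed by -0.47 (SE 0.11, adjusted p = 0.016) from heterozygous cells, a call lost without replicate 4 of the null cells (adjusted p = 0.0528). Dhx58, a relative of RIG-I, read 8.01, 8.10, 8.03 and 8.13 in Pax5+/-;Myd88+/- cells, against 7.75, 7.42, 7.85 and 7.17 in WT cells, a difference of 0.52 (SE 0.12, adjusted p = 0.0108). Adar, which edits double-stranded RNA, differed by -0.28 (SE 0.07, adjusted p = 0.0211) between null (9.25, 9.24, 9.25 and 9.16) and heterozygous cells (9.48, 9.52, 9.50 and 9.50).

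Of the transcription factors, Irf7 read 7.43, 7.17, 7.38 and 7.12 in Pax5+/-;Myd88-/- cells, 7.60, 7.85, 7.67 and 8.09 in Pax5+/-;Myd88+/- cells, 7.24, 7.69, 7.29 and 7.65 in Pax5+/- cells and 7.39, 7.11, 7.50 and 7.05 in WT cells. Heterozygous cells were above WT cells by 0.54 (SE 0.13, adjusted p = 0.0207), and null cells differed by -0.53 (SE 0.13, adjusted p = 0.0201) from heterozygous cells, a call lost without replicate 2 or 4 of either (adjusted p = 0.0554 to 0.0693). Stat2 averaged 8.98 ± 0.10, 9.16 ± 0.08, 9.14 ± 0.22 and 9.43 ± 0.07 in the same order of groups (SD, n = 4 each), and null cells differed by -0.46 (SE 0.09, adjusted p = 0.00283) from WT cells. Irf1 averaged 8.55 ± 0.08, 8.77 ± 0.21, 8.55 ± 0.02 and 9.02 ± 0.30, with null and Pax5+/- cells at -0.47 (SE 0.12, adjusted p = 0.015) and -0.47 (SE 0.12, adjusted p = 0.0249) from WT cells. The call of Irf1 in Pax5+/- cells was lost without replicate 2, 3 or 4 of these or replicate 1 or 3 of the WT cells (adjusted p = 0.0528 to 0.0665). Irf9 averaged 8.11 ± 0.18, 8.29 ± 0.07, 7.98 ± 0.09 and 7.93 ± 0.29 and passed in no comparison between proB genotypes.

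The enzymes that attach ISG15, ubiquitin or ADP-ribose moved in both directions. Rnf213, a large ubiquitin ligase, read 8.89, 8.31, 9.04 and 8.68 in Pax5+/-;Myd88-/- cells, 9.26, 9.20, 9.28 and 9.07 in Pax5+/-;Myd88+/- cells, 8.69, 9.31, 9.04 and 9.05 in Pax5+/- cells and 8.25, 8.15, 8.22 and 8.28 in WT cells. It was above WT by 0.51 (SE 0.13, adjusted p = 0.0174), 0.98 (SE 0.13, adjusted p = 0.000121) and 0.80 (SE 0.13, adjusted p = 0.000899). Null cells differed by -0.47 (SE 0.13, adjusted p = 0.0359) from heterozygous cells, a call lost without replicate 1, 2 or 3 of the heterozygous or replicate 2 or 4 of the null cells (adjusted p = 0.0573 to 0.0927). Herc6, the main ISG15 ligase of the mouse, read 8.42, 8.63, 8.48 and 8.77 in Pax5+/-;Myd88+/- cells and 8.66, 8.69, 8.52 and 8.35 in Pax5+/- cells, against 8.36, 7.44, 8.33 and 7.62 in WT cells. The difference from WT was 0.64 (SE 0.18, adjusted p = 0.0399) for heterozygous and 0.62 (SE 0.18, adjusted p = 0.0427) for Pax5+/- cells. WT replicate 1 lay above the lowest Pax5+/- array, and WT replicates 1 and 3 came within 0.1 of the lowest heterozygous array. Both calls were lost without WT replicate 2 or 4 (adjusted p = 0.132 to 0.149). The call in Pax5+/- cells was also lost without replicate 1, 2 or 3 of these cells (0.0781 to 0.123). The call in heterozygous cells was also lost without any 1 of the heterozygous replicates (0.0508 to 0.133). Parp14, an ADP-ribosyltransferase, averaged 9.03 ± 0.18 in null and 8.97 ± 0.18 in Pax5+/- cells, against 9.42 ± 0.10 in WT cells (SD, n = 4 each), differences of -0.39 (SE 0.10, adjusted p = 0.0135) and -0.45 (SE 0.10, adjusted p = 0.00835).

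The other genes that passed did so in 1 proB comparison each. Slfn5, a schlafen family member, read 6.51, 7.27, 6.47 and 6.86 in Pax5+/- cells, against 6.23, 5.78, 6.14 and 5.64 in WT cells, a difference of 0.83 (SE 0.17, adjusted p = 0.00373) without overlap. Ifi35 read 8.34, 7.98, 8.25 and 8.13, against 8.41, 8.62, 8.45 and 8.63, a difference of -0.35 (SE 0.08, adjusted p = 0.0153). Isg20 read 8.23, 8.03, 8.14 and 7.89 in Pax5+/-;Myd88-/- cells, against 7.48, 7.57, 7.76 and 7.77 in WT cells, a difference of 0.43 (SE 0.11, adjusted p = 0.0156). Oas2 was 7.34, 7.07, 7.35 and 6.99 in null and 7.68, 7.97, 7.70 and 7.84 in heterozygous cells, a difference of -0.61 (SE 0.18, adjusted p = 0.0445). Its call was lost without any of 7 of these 8 arrays, the exception being heterozygous replicate 3 (adjusted p = 0.0524 to 0.14). The other Oas genes, Ifit2, Ifit3, both Mx genes and Usp18 did not pass between proB genotypes.

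Another 3 comparisons crossed the experiments, and the arrays in them also differ in culture, in sorting or in the make-up of the marrow. Cultured WT proB cells were set against sorted WT cells, with 6 of the 45 genes higher and 16 lower, where 22.9% of all probesets were higher and 19.6% lower. The median difference was -0.36 over the genes and 0.03 over all probesets. Sp100 differed by -3.30 (SE 0.30, adjusted p = 7.63e-10), Rsad2 by -2.82 (SE 0.47, adjusted p = 1.75e-05), Isg20 by -2.16 (SE 0.31, adjusted p = 1.59e-06) (with 7.48, 7.57, 7.76 and 7.77 in cultured and 9.57, 10.05, 9.76 and 9.82 in sorted cells), Rnf213 by -1.81 (SE 0.27, adjusted p = 2.72e-06), Ddx58 by -1.66 (SE 0.21, adjusted p = 3.25e-07) and Ifi203 by -1.32 (SE 0.18, adjusted p = 6.2e-07). In each of these, no cultured array reached the sorted cells. The genes higher in culture were Ifitm1 at 3.13 (SE 0.56, adjusted p = 4.15e-05), Ifi202b at 2.42 (SE 0.78, adjusted p = 0.0138), Eif2ak2 at 1.91 (SE 0.21, adjusted p = 1.56e-08), Lgals3bp at 1.33 (SE 0.41, adjusted p = 0.0103), Ifitm2 at 0.71 (SE 0.22, adjusted p = 0.00899) and Dtx3l at 0.48 (SE 0.13, adjusted p = 0.00355). The natural killer and plasmacytoid dendritic cell genes that were high in sorted cells were low in culture (5.47 to 5.73 and 6.89 to 7.10), and 10 of 11 stromal genes were higher in culture.

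Pax5+/- leukemias were set against Pax5+/- proB cells, with 28 genes higher and 2 lower, where 22.3% of all probesets were higher and 31.1% lower. The median difference was 0.82 over the 45 genes and -0.05 over all probesets. All 4 Oas family genes and all 5 genes outside the named families (Sp100, Xaf1, Ifi35, Rtp4 and Lgals3bp) were among the higher ones. Ifitm3 differed by 3.14 (SE 0.39, adjusted p = 2.15e-07), Ly6e by 2.14 (SE 0.32, adjusted p = 2.69e-06), Rtp4 by 2.14 (SE 0.62, adjusted p = 0.00518), Usp18 by 2.13 (SE 0.58, adjusted p = 0.00299), Irf7 by 1.74 (SE 0.47, adjusted p = 0.00272) and Oas2 by 1.66 (SE 0.48, adjusted p = 0.00534). The lowest leukemia read 5.97 for Rtp4 and 6.01 for Usp18, against 6.08 to 6.74 for Rtp4 and 5.88, 5.71, 5.95 and 6.06 for Usp18 in the proB arrays, so the spread among leukemias reached the level of the cultures. Lower were Eif2ak2, by -0.63 (SE 0.19, adjusted p = 0.00634), and Dtx3l, at 10.10, 9.54, 9.63, 9.53, 9.90 and 10.20 in leukemias and 9.93, 10.23, 10.10 and 10.32 in proB cells, by -0.33 (SE 0.12, adjusted p = 0.0208), a call lost without replicate 2 or 4 of either group (adjusted p = 0.0541 to 0.0859). With only the 2 groups fitted, the calls of Rtp4, Usp18, Oas2, Eif2ak2 and Dtx3l were lost (adjusted p = 0.0555 to 0.102). Of the 12 granulocyte genes all were higher in these leukemias, and 8 of 11 macrophage genes, with 6 of 9 precursor B cell genes lower, and the part of these cells was not tested.

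Pax5+/-;Myd88+/- leukemias were set against Pax5+/-;Myd88+/- proB cells, with 11 genes higher and 1 lower, where 6.36% of all probesets were higher and 8.21% lower. The median difference was 0.50 over the genes and -0.04 over all probesets. Sp100 differed by 2.21 (SE 0.28, adjusted p = 1.9e-06), Ifitm3 by 1.77 (SE 0.39, adjusted p = 0.00281), Slfn5 by 1.57 (SE 0.38, adjusted p = 0.00525) (with 6.36 to 9.66 (median 7.81) in leukemias and 6.20, 6.27, 6.31 and 6.36 in proB cells) and Rnf213 by 1.50 (SE 0.24, adjusted p = 8.49e-05). Oasl2 read 7.23 to 9.12 (median 7.90) in leukemias, against 7.08, 6.97, 6.99 and 6.91 in proB cells, a difference of 1.0 (SE 0.29, adjusted p = 0.0196), and Xaf1, which opposes an inhibitor of apoptosis, read 7.62 to 9.30 (median 8.03), against 7.07, 7.20, 7.17 and 7.30, a difference of 0.97 (SE 0.33, adjusted p = 0.048). The other 5 that rose were Mx2, Irf1, Ddx58, Ifi35 and Parp14, by 0.50 to 0.91. Ifi202b was lower, with 4.91, 5.11, 5.11, 7.40, 6.22 and 5.26 in leukemias and 8.54, 7.13, 8.70 and 7.37 in proB cells, by -2.27 (SE 0.72, adjusted p = 0.0322). Calls were lost for Xaf1 without any of 8 of the 10 arrays (all but leukemia replicates 5 and 6, adjusted p = 0.0577 to 0.117), for Ifi202b without leukemia replicate 1, 2 or 3 or proB replicate 1 or 3 (0.0569 to 0.0994) and for Oasl2 without proB replicate 2 (0.0532). With only these 2 groups fitted, the calls of Ifitm3, Slfn5, Oasl2 and Xaf1 were lost (0.0704 to 0.127). Without leukemia replicate 6, 20 genes passed. Of the marker genes, 7 of 11 macrophage, 4 of 12 granulocyte and 3 of 8 plasmacytoid dendritic cell genes were higher and 2 of 9 precursor B cell genes lower in these leukemias, and the part of such cells was not tested.

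The difference between Pax5+/-;Myd88+/- and Pax5+/- samples was itself compared between leukemias and proB cells with an interaction term, in which 1 gene was higher and 5 were lower, where 10.7% of all probesets were higher and 11.1% lower. Ly6e gave -2.81 (SE 0.45, adjusted p = 3.38e-05), with 12.70, 10.28, 13.18, 12.92, 12.42 and 11.66 in Pax5+/-;Myd88+/- leukemias and 13.38, 12.56, 12.90, 13.21, 13.29 and 12.67 in Pax5+/- leukemias, the opposite order of means to proB cells. Ifitm2 gave -1.13 (SE 0.28, adjusted p = 0.00399) and Eif2ak2 0.88 (SE 0.27, adjusted p = 0.0169). Ifit1 gave -0.90 (SE 0.30, adjusted p = 0.0311), Cmpk2 -1.08 (SE 0.39, adjusted p = 0.0477) and Ifi35 -0.67 (SE 0.21, adjusted p = 0.0193). In the leukemias Ifit1 read 5.32 to 6.43 (median 5.88) in Pax5+/-;Myd88+/- and 5.48 to 6.87 (median 6.30) in Pax5+/- samples, and Cmpk2 read 6.36 to 7.77 (median 6.78) and 6.39 to 8.26 (median 7.26). The last 3 calls were lost when single arrays were left out. This held for Cmpk2 with 15 of the 20 arrays (adjusted p = 0.0533 to 0.0909), for Ifit1 with leukemia replicate 6 and proB replicates 3 and 4 of Pax5+/-;Myd88+/- and leukemia replicates 1 and 5 and proB replicates 1 and 4 of Pax5+/- mice (0.0523 to 0.0662), and for Ifi35 with Pax5+/- proB replicate 2 (0.0501).

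The genes upstream of the 45 were described from lists of their own. Of 10 measured genes of the receptor and its kinases and inhibitors, at most 2 passed in any comparison within either experiment. In these comparisons 2.02% to 18.1% of all probesets were higher and 2.29% to 17.1% lower. In Pax5+/- leukemias relative to Pax5+/- proB cells 7 were higher and 1 lower, where 22.3% of all probesets were higher and 31.1% lower. Ifnar2 differed by 0.82 (SE 0.19, adjusted p = 0.000647) and Ifnar1 by -0.63 (SE 0.13, adjusted p = 0.000234). Socs1, which inhibits the receptor's kinases, differed by -1.06 (SE 0.23, adjusted p = 0.00198) between Pax5+/-;Myd88+/- and Pax5+/- leukemias. Ifnar2 was 0.38 (SE 0.10, adjusted p = 0.0217) higher in Pax5+/-;Myd88-/- than in Pax5+/-;Myd88+/- proB cells. Of 14 measured interferon genes, 6 were higher in Pax5+/-;Myd88+/- than in Pax5+/- leukemias, where 18.1% of all probesets were higher. One of them was Ifnb1, by 0.21 (SE 0.04, adjusted p = 0.00155), at levels between 5.49 and 6.03 in all 32 arrays.

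Of 12 measured genes of nucleic acid sensing upstream of interferon, 4 rose and 4 fell in Pax5+/-;Myd88+/- leukemias and 3 rose and 1 fell in Pax5+/- leukemias relative to sorted WT cells, where 13.8% and 17.1%, and 11.7% and 12.8%, of all probesets were higher and lower. Tlr7, the endosomal receptor for single-stranded RNA that signals through Myd88, was 2.28 higher in Pax5+/-;Myd88+/- than in Pax5+/- proB cells (adjusted p = 1.31e-11) and 4.51 higher in Pax5+/- leukemias than in Pax5+/- proB cells (adjusted p = 1.02e-13). It lies on the X chromosome, and Xist moved with it in the first of these comparisons. Tlr7 also differed where Xist did not, by -1.41 (adjusted p = 6.05e-09) between null and heterozygous and by -1.60 (adjusted p = 9.42e-10) between Pax5+/- and WT proB cells. The part of sex in the Tlr7 differences was not tested. A list of 32 further interferon-induced genes had 5 that rose and 6 that fell in Pax5+/-;Myd88+/- leukemias and 5 and 3 in Pax5+/- leukemias relative to sorted WT cells, at the same background. In Pax5+/- leukemias relative to Pax5+/- proB cells 22 of them rose and 1 fell, where 22.3% of all probesets were higher and 31.1% lower. Between proB genotypes, 3 to 10 of them passed, where 2.02% to 9.78% of all probesets were higher and 2.29% to 5.95% lower. Samhd1, which removes nucleotides that viruses need, differed by 1.38 (SE 0.11, adjusted p = 4.49e-07) between Pax5+/- and WT proB cells and by -1.84 (SE 0.11, adjusted p = 1.31e-08) between Pax5+/-;Myd88-/- and Pax5+/- proB cells.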

How the data were processed

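RNA of 32 mouse samples was hybridised to Affymetrix mouse gene arrays. The authors summarised the arrays at gene level with the RMA algorithm in the Transcriptome Analysis Console, per the labels and methods, and deposited log2 values of 28944 probesets (mm10). Whether all arrays were normalised together was not given in the sources used here, which bears on the comparisons across experiments. Array medians lay between 6.88 and 7.03.

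Probesets were named from the platform annotation (21789 with 1 gene, 1621 with several, 5534 with none), and a gene was given by the probeset with the highest mean over all arrays. The 45 genes, their roles and the other lists were chosen with earlier results of these data known. Linear models were fitted to all 28944 probesets with limma 3.58.1 in R 4.3.3, separately for the 16 leukemia and sorted arrays and the 16 proB arrays, and over all 7 groups for comparisons across experiments and for the interaction. P-values were adjusted over all probesets by Benjamini-Hochberg, and a gene passed at an adjusted p under 0.05 with no limit on fold change. The methods' own criterion, an unadjusted p with a 2-fold limit, was run as an alternative. All p-values measure the spread between arrays, which may be partly technical. In each comparison, up to 6 genes in each direction with the largest difference among those that passed are given in full. A gene named outside this rule was chosen after its values were seen.

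The mean over the 45 genes has no test. Same-numbered arrays of different groups were checked for pairing. Over 38 pairs their deviations correlated at -0.27 to 0.52, and 8 correlated best with their own number. Every pair exceeded 0.1 only between Pax5+/-;Myd88-/- and WT proB cells, and a block on replicate number there gave the same count, 13 genes. On simulated data with 100 probesets changed by 1.5, at least 93 were recovered in each of 13 comparisons, with at most 11 false calls among 28944 probesets. The simulated arrays were independent and had the same SD per probeset in every group. The real arrays have a wider spread in leukemias and near-identical pairs in WT proB cells, so the simulation cannot give their rate of false calls.

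Alternatives were another normalisation, centring, a single fit over the 32 arrays, fits restricted to the groups compared, other probeset rules, the replicate block and leaving out each array. Promoter sequences came from RefSeq (GRCm38.p6). No column of another series was used.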

Additional observations from a re-analysis of the deposited data

Results flagged for a closer look

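Single arrays stood apart from the rest of their group in 13 of the 231 sets of values examined (32 genes and the mean, in each of 7 groups), and chance alone marks about 1 in 20 groups. In Pax5+/-;Myd88+/- leukemias these were replicate 2 for Rsad2 (10.39, nearest other 7.61) and Apobec3 (9.57, nearest 10.63), replicate 3 for Xaf1 (9.30, nearest 8.24) and replicate 6 for Ifitm3 (8.38, nearest 10.43) and Lgals3bp (8.96, nearest 10.96). In Pax5+/- leukemias they were replicate 2 for Stat2 (9.83, nearest 9.01), Ifi203 (11.13, nearest 11.72) and Bst2 (9.94, nearest 8.73) and replicate 4 for Ifi202b (10.47, nearest 6.00). In Pax5+/-;Myd88-/- proB cells replicate 3 stood apart for Ifit1 (5.49, nearest 5.21) and Ifitm3 (10.21, nearest 10.58). In WT proB cells it was replicate 1 for Ly6e (11.74, nearest 11.79), a gap of little size. In sorted WT cells it was replicate 3 for Apobec3 (8.96, nearest 11.06).

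The difference between Pax5+/-;Myd88+/- and Pax5+/- samples was not the same in leukemias and proB cells for 6 genes by limma's interaction term. Of these 1 was higher and 5 were lower, 2.22% and 11.1% of the 45 genes. Among all probesets 10.7% were higher and 11.1% lower, so these shares are no larger than the background. The change in leukemias minus that in proB cells was -2.81 for Ly6e (adjusted p = 3.38e-05), -1.13 for Ifitm2 (adjusted p = 0.00399), 0.88 for Eif2ak2 (adjusted p = 0.0169), -0.67 for Ifi35 (adjusted p = 0.0193), -0.90 for Ifit1 (adjusted p = 0.0311) and -1.08 for Cmpk2 (adjusted p = 0.0477). The proB side of each contrast also crosses the 2 levels of Xist, and the part of sex was not tested.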

How the results depend on the processing

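Counts of the 45 genes that passed moved by over 1.5 times under some alternatives, in this order of comparisons: Pax5+/-;Myd88+/- leukemia against sorted WT, Pax5+/- leukemia against sorted WT, and between the leukemias (10, 8 and 5 genes), then Pax5+/- against WT, Pax5+/-;Myd88+/- against Pax5+/- and WT, and Pax5+/-;Myd88-/- against Pax5+/-, Pax5+/-;Myd88+/- and WT proB cells (12, 10, 10, 9, 10 and 13 genes). With all 32 arrays in one fit, which pools the wide spread of the leukemias with the cultures, they were 18, 13 and 10, then 0 (11 at an unadjusted p under 0.05), 2, 1, 5, 2 and 4. With only the 2 groups compared, Pax5+/-;Myd88-/- against Pax5+/-;Myd88+/- proB cells gave 16 genes and Pax5+/-;Myd88+/- leukemia against proB 7 (12 as reported). The methods' t-test after adjustment gave 2 between the leukemias, 3, 5 and 5 for Pax5+/- against WT, Pax5+/-;Myd88+/- against WT and Pax5+/-;Myd88-/- against Pax5+/- proB cells, and 14 and 3 for Pax5+/- and Pax5+/-;Myd88+/- leukemia against proB (30 and 12 as reported). At the methods' unadjusted p with a 2-fold limit, 2 passed between the leukemias, 1 for Pax5+/- against WT, 5 and 3 for Pax5+/-;Myd88+/- against Pax5+/- and WT and 2 and 3 for Pax5+/-;Myd88-/- against Pax5+/-;Myd88+/- and WT proB cells, and 15 and 6 for leukemia against proB. Without the Ifitm genes, 5 and 3 remained for Pax5+/- leukemia against sorted WT and between the leukemias. With WT proB pairs averaged, 6 passed for Pax5+/- against WT proB and 14 for WT proB against sorted WT (22 as reported). With pairs averaged in every genotype, the proB counts were 1, 4, 5, 3, 1 and 4. These averaged and Ifitm alternatives were chosen after seeing the data.

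Leaving out 1 array gave 7 to 12, 8 to 11 and 4 to 8 genes in the leukemia comparisons, 8 to 15, 9 to 10, 8 to 12, 6 to 15, 5 to 10 and 11 to 15 in the proB comparisons, and 19 to 21, 27 to 32 and 8 to 20 across experiments, with 4 to 9 for the interaction. The count was 15 for Pax5+/-;Myd88-/- against Pax5+/- without Pax5+/- replicate 1, and 6 or 5 for Pax5+/-;Myd88-/- against Pax5+/-;Myd88+/- without heterozygous replicate 2 or null replicate 4. The replicate block moved no count by over 1.5 times (8, 8 and 4, then 13, 10, 11, 10, 10 and 13, then 21, 29 and 10, and 5 for the interaction). The mean difference for Pax5+/- against WT proB was -0.09, and as a median over genes 0.0275. The median was 0.20 for Pax5+/-;Myd88+/- against Pax5+/- proB (0.31 as a mean) and 0.10 for Pax5+/-;Myd88-/- against Pax5+/- proB (0.19 as a mean, 0.25 after centring each array). Of 2052 single-gene values under alternatives, 1804 kept their direction and side of the threshold, 248 lost the call and 0 turned direction. Only calls that had passed were followed. Several alternatives, such as other fits and the t-test, keep the same difference of group means, so direction could not turn under them. A repeated quantile normalisation ended the calls of Irf1 and Rsad2 in Pax5+/-;Myd88+/- leukemia against sorted WT (adjusted p = 0.0609 and 0.0589), of Pnpt1 and Ifi35 between the leukemias (0.0587 and 0.115) and of Ifi35 in the interaction (0.062). Centring ended those of Herc6 in Pax5+/- against WT, Oas2 and Rnf213 in Pax5+/-;Myd88-/- against Pax5+/-;Myd88+/- proB cells and Xaf1 in Pax5+/-;Myd88+/- leukemia against proB (0.0513 to 0.0556). Genes with signals below 6 are limited by background. Fitting only the compared groups also ended the calls of Rsad2 in Pax5+/-;Myd88+/- leukemias against sorted WT cells (adjusted p = 0.0931), Ifi35 between the leukemia genotypes (0.0555), Irf1 in Pax5+/- against WT proB cells (0.0864) and Herc6 in Pax5+/- (0.175) and Pax5+/-;Myd88+/- (0.165) against WT proB cells.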
